A study of Mus musculus with 12 samples.

Results

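Mouse trophoblast stem cells (TSC), the cultured stem cells that can form the placental lineage, were sequenced for small RNA in 2 states, control and paused by inhibition of the mTOR kinase. The comparison took every sample labelled as paused TSC (3) and every sample labelled as WT TSC (3), which are 6 of the 12 samples of the study, and all 1978 miRNAs of the count files. The other 6 samples are E14 mouse embryonic stem cells (ESC) in the same 2 states, 3 of each, and they enter only where a change is compared between cell types. The TSC line, its passage, its feeder cells, the inhibitor, the dose and the time under inhibition were not given in the sources used here. The series' design text places the cultures beside embryos paused by inhibition and embryos in natural diapause. The question is which miRNAs change when cells are paused.

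A miRNA is a short RNA cut from the 5p or 3p arm of a hairpin precursor. It guides an Argonaute protein to messenger RNAs that match its seed, bases 2 to 8 from the 5′ end, and lowers their output, so miRNAs with the same seed share predicted targets. mTOR drives protein synthesis and growth when nutrients are plentiful, and its inhibition holds mouse blastocysts and embryonic stem cells in a reversible state of low growth that resembles diapause. Trophoblast is known for the miR-290-295 cluster, for the imprinted miRNA cluster in an intron of Sfmbt2 and for the X-linked miR-322 cluster, whose members restrain the cell cycle.

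In each TSC group the counts of replicate 3 equalled those of replicate 2 at all 1978 miRNAs, and the pair was counted as 1 sample. This left n = 2 libraries a group, here called control 1, control 2, paused 1 and paused 2. Nothing in the labels ties them to separate cultures, and the p-values then measure a spread that may be technical. In the main fit this spread was also fitted across miRNAs, so neither a p-value nor a standard error (SE) reflects a miRNA's own scatter. Total counts were 115492 and 18725 in control and 23652 and 30487 in paused TSC, and 537 miRNAs had at least 1 TSC count. A count of 0 allows up to 3 counts, and this floor was worth 26.0 to 160.2 CPM (counts scaled to a common total, before further scaling) in these 4 libraries. The kit's protocol as given mentions no molecular identifiers, so floors and intervals cover counting error only. Of 59 miRNAs with more than 1 genomic copy, 8 had a TSC count, against 436 of 1620 with a single copy. Multicopy miRNAs, miR-16 and several let-7 members among them, were thus barely counted. Genome positions below are of the hairpin unless stated otherwise, on GRCm38.p6.

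The TSC label fitted the marker miRNAs. The miR-322 cluster held 10.1% and 11.3% of counts in control and 5.76% and 7.64% in paused TSC, and at most 0.160% in any ESC library. The miR-302 cluster, a marker of pluripotent cells, had 6 counts in control 1 and 0 in the other 3 TSC libraries. Markers of blood cells (15, 0, 1 and 0 counts in control 1, control 2, paused 1 and paused 2), muscle (10 counts in control 1, 0 elsewhere), neurons (12, 2, 3 and 3) and hepatocytes (0 in all) were at or near 0. Multicopy markers would be barely counted whatever cells were present, so low counts of such markers say little. Of 20 listed feeder or fibroblast miRNAs 11 had a TSC count, and their summed share was 0.0534% to 0.0727% in control and 0.0361% to 0.0592% in paused TSC, with miR-143-3p the best counted. The endothelial miR-126a arms held 0.200% to 0.272% and 0.200% to 0.237%. In such bulk samples fewer cells of a type and less RNA per cell cannot be told apart.

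The mature sequences of the miRNAs on which the results turn are shown 5′ to 3′ as RefSeq gives them for GRCm38.p6, with the seed in capitals. The first 4 carry the AGCAGC core of the cell cycle family, of which all but miR-15b-5p were lower in paused TSC; the next 7 are miR-203-3p and members of the Dlk1-Dio3 cluster that were lower.
miR-322-5p: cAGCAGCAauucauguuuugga
miR-503-5p: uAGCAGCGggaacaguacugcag
miR-497a-5p: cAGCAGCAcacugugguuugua
miR-15b-5p: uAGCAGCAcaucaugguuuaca
miR-203-3p: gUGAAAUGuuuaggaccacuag
miR-376b-3p: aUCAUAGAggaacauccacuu
miR-300-3p: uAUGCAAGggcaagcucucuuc
miR-154-3p: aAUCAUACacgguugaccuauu
miR-380-3p: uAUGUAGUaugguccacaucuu
miR-411-3p: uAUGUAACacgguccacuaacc
miR-379-3p: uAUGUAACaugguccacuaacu

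The let-7 members that were lower share 1 seed. The next 4 are database entries of doubtful origin, shown because they lost the most counts. Their GC content is mixed: miR-5126 is made of G and C alone (100% GC), miR-2137 and miR-6240 are 85.7% and 69.2% GC, and miR-1983 is 47.6%, while miR-322-5p and miR-203-3p are 40.9% and miR-99b-5p is 63.6%. The last 4 were higher in paused TSC.
let-7i-5p: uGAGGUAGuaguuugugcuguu
let-7d-5p: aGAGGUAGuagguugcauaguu
let-7g-5p: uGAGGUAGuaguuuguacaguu
miR-5126: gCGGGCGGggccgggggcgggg
miR-2137: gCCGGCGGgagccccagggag
miR-6240: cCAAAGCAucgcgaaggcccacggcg
miR-1983: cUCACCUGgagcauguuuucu
miR-335-5p: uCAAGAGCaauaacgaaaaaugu
miR-21a-5p: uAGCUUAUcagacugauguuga
miR-99b-5p: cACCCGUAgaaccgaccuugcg
miR-141-3p: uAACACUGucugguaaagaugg

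On edgeR's TMM scaling, explained below, paused TSC had lower levels of many miRNAs and higher levels of few. Of 206 miRNAs with enough counts to be tested, edgeR's quasi-likelihood test with Benjamini-Hochberg adjustment called 39 at the 0.05 level (18.9%), 35 lower (17.0%) and 4 higher (1.94%). The 4 higher were miR-335-5p, miR-21a-5p, miR-99b-5p and miR-141-3p. On the same scale both paused libraries lay below both control libraries in 74 miRNAs (35.9% of those tested), and in 26 both lay above (12.6%). With 2 libraries a group such orders often arise by chance. CPM values below carry edgeR's TMM scaling, a trimmed mean of log ratios between libraries. On that scale the median log2 fold change of all 206 miRNAs was −0.39, and with scaling by the total count it was 0.08, and single changes are read against that shift of the whole set. With the total count the split was 14 higher and 12 lower. In the parentheses below the first value is the log2 fold change of paused against control TSC on TMM scaling and the second, where given, edgeR's adjusted p.

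**Figure D1:**
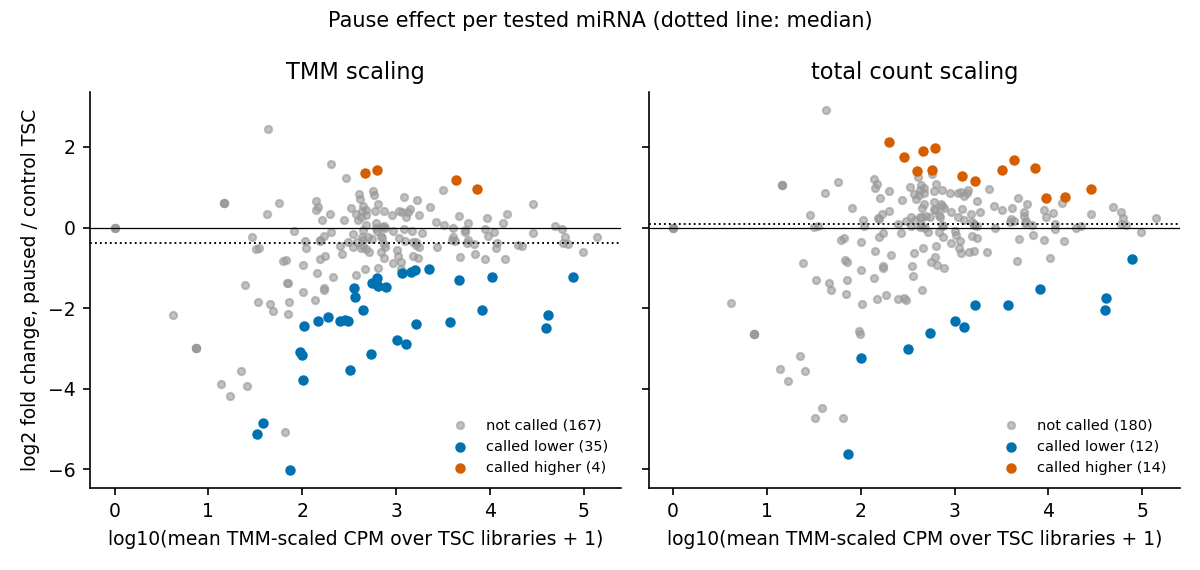
Each of the 206 tested miRNAs is a point, with the log10 of its mean TMM-scaled CPM over the 4 TSC libraries (plus 1) on the x axis and its fitted log2 fold change of paused against control TSC on the y axis, with TMM scaling on the left and total count scaling on the right. Blue marks miRNAs called lower (35 and 12) and orange those called higher (4 and 14), and the dotted median lies at −0.39 on the left and 0.08 on the right.

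The calls that did not hang on the scaling were 16 of the 39. These were called in the same direction under TMM, median of ratios, the total count, TMM without the miR-290-295 cluster, and TMM and library sizes without the doubtful entries. Higher were the 4 miRNAs named above. Lower were miR-322-5p of the trophoblast cluster, miR-203-3p of epithelium, miR-376b-3p, miR-154-3p and miR-380-3p of the Dlk1-Dio3 cluster, miR-1949, and 6 doubtful entries (miR-5126, miR-2137, miR-6240, miR-1983 and both miR-712 arms). DESeq2 called 16 miRNAs, 15 of them among the 39. In each of 4 runs that left out 1 library, 8 of the 39 stayed called: miR-203-3p, miR-1949 and the 6 doubtful entries. The count of calls was 18 without control 1, 57 without control 2, 18 without paused 1 and 12 without paused 2.

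**Figure D2:**
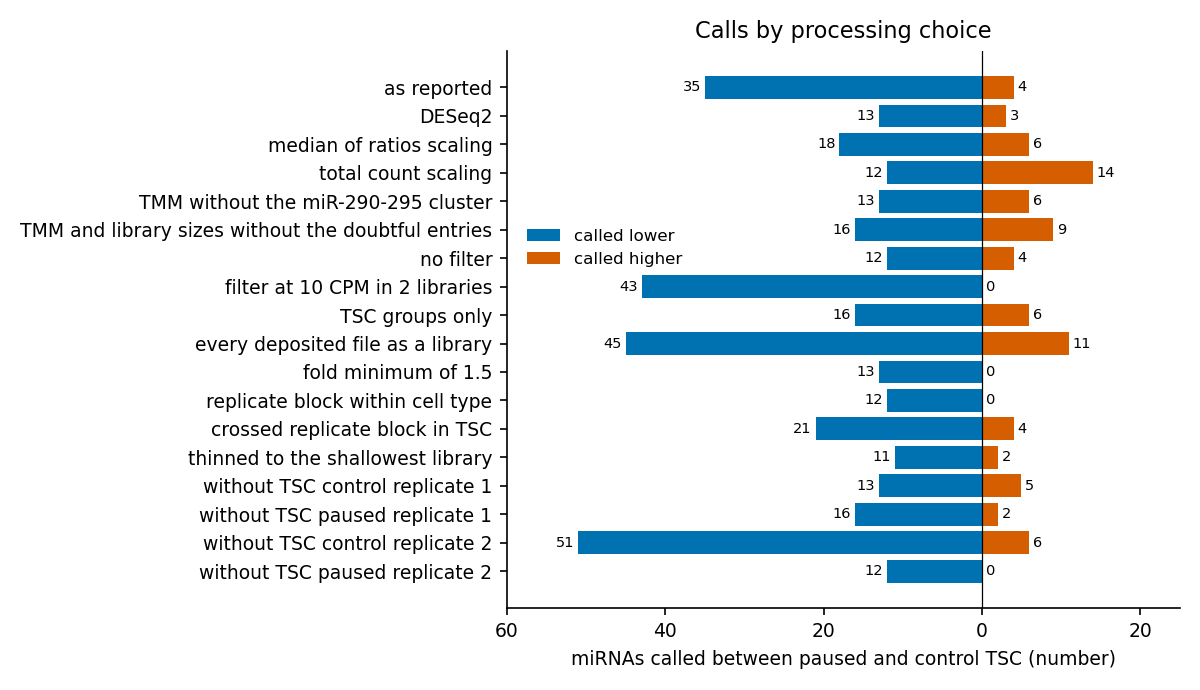
Number of miRNAs called lower (blue, to the left) and higher (orange, to the right) in paused against control TSC, by edgeR unless named otherwise, as reported (35 and 4) and under 17 other settings. Lower calls outnumber higher ones in each setting but scaling by the total count (12 and 14), and the number lower ranges from 11 to 51.

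**Figure D3:**
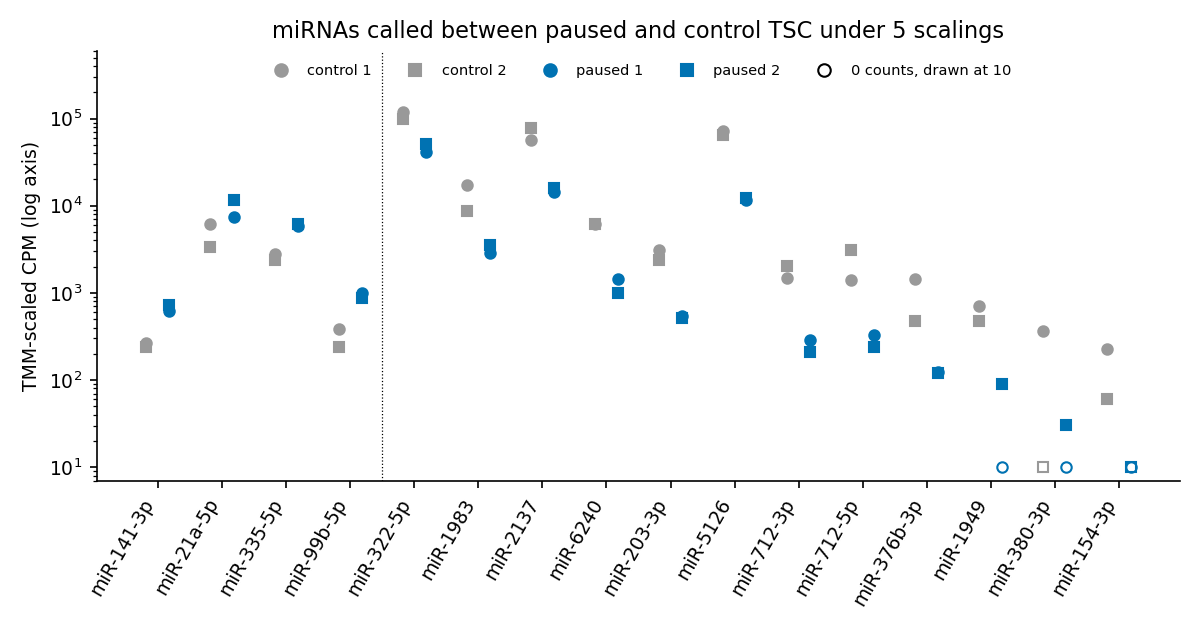
TMM-scaled CPM (log axis) of the 16 miRNAs called in the same direction under 5 scalings, with 1 symbol per library: grey for control, blue for paused, circles for replicate 1 and squares for replicate 2. The 4 miRNAs left of the dotted line were higher and the 12 right of it lower in paused TSC, and open symbols at miR-154-3p, miR-380-3p and miR-1949 mark libraries with 0 counts, drawn at 10.

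The largest change in composition was on 15 listed entries whose standing as true miRNAs is doubted. They held 11.1% and 15.0% of counts in control and 3.51% and 3.94% in paused TSC. Each of the 8 that could be tested was lower (35 of 206 lower, 17.0%, over all tested), 6 of them with the total count and 7 by DESeq2. The list was chosen with earlier results of these data known, so this count is no test of the entries as a class. miR-5126 (chromosome 1, 84695839 to 84695915) stood at 71095 and 64404 CPM in control and 11656 and 12368 CPM in paused TSC, a fall of 5.64-fold (log2 −2.50 ± 0.32 SE, edgeR adjusted p = 7.37e-12). miR-2137, placed in an intron of Zfp185 (chromosome X, 72992079 to 72992144), stood at 56993 and 77706 CPM in control and 14219 and 15906 CPM in paused TSC (−2.16). Both entries were among the 10 most abundant miRNAs of control TSC, and neither pair of paused libraries came within 3 times of the control libraries.

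The smaller doubtful entries followed the same order of libraries. miR-6240 stood at 6178 and 6199.7 CPM in control and 1447 and 998 CPM in paused TSC (−2.35). miR-1983 stood at 17465 and 8667 CPM in control and 2893 and 3538 CPM in paused TSC (−2.03). miR-712, best known as a product of the spacer of the ribosomal RNA precursor, fell on both arms. Its 5p arm had 109 and 52 counts in control and 8 and 8 in paused TSC (−2.89) and its 3p arm 117 and 34 counts in control and 7 and 7 in paused TSC (−2.78), and the groups did not overlap on either arm. miR-5099 (−1.30) and miR-690 (−1.47), the latter in an intron of Fgf12, were lower by less. Their calls were lost with the total count (adjusted p = 0.0804 and 0.131). Without paused 2 they stood at 0.100 and 0.101, miR-5099 without control 1 at 0.0739 and miR-690 without paused 1 at 0.0966. The part of these entries in the scaled values of other miRNAs was not tested; with them left out of the scaling and the totals, 9 miRNAs were called higher and 16 lower.

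**Figure D4:**
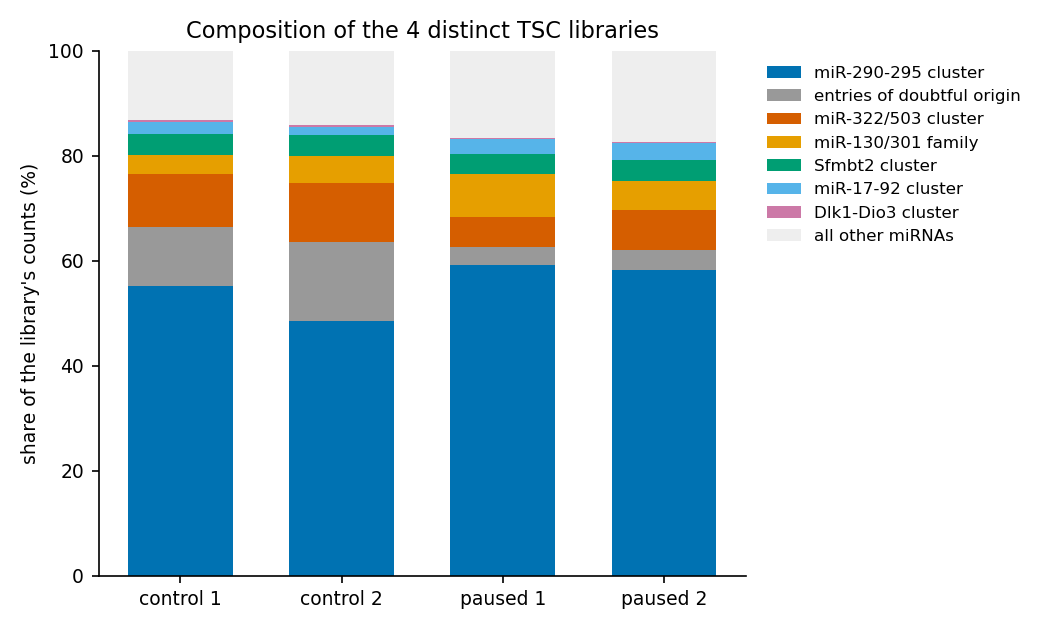
Share of each TSC library's counts (%) by miRNA cluster or list, 1 bar per distinct library. The miR-290-295 cluster (blue) held 48.6% to 59.1% in each bar, while the grey doubtful entries took 11.1% and 15.0% in control and 3.51% and 3.94% in paused TSC, and the miR-322 cluster (orange) 10.1% and 11.3% against 5.76% and 7.64%.

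The miR-322 cluster lost counts through its 2 main products. It lies on chromosome X, and miR-322-5p (the mouse form of human miR-424) shares its seed with the miR-15/16 family, which represses cyclins and other drivers of the cell cycle. miR-322-5p (chromosome X, 53054255 to 53054349) stood at 118662 and 98292 CPM in control and 41002 and 51106 CPM in paused TSC. Both paused libraries were below both control libraries, a fall of 2.36-fold (log2 −1.24 ± 0.31 SE, edgeR adjusted p = 0.00120). miR-503-5p (chromosome X, 53053984 to 53054054), whose seed differs from that of miR-322-5p in its last base, stood at 16777 and 12519.7 CPM in control and 4959.9 and 7621 CPM in paused TSC (−1.22, adjusted p = 0.00360).

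The rest of the miR-322 cluster did not pass the test. Of 13 listed members 12 had a TSC count and 8 were tested, with 2 called lower (17.0% over all tested miRNAs) and a median log2 fold change of −0.58 against −0.39 over all tested miRNAs (−0.10 against 0.08 with the total count). miR-351-5p, which has the seed of the miR-125 family, stood at 4433 and 7042 CPM in control and 5456 and 4989.6 CPM in paused TSC, with the groups overlapping (−0.11, edgeR adjusted p = 0.869). miR-322-3p (−0.74), miR-542-3p (−0.57) and miR-503-3p (−0.60) were not called either. Without paused 1 the adjusted p was 0.115 for miR-322-5p and 0.179 for miR-503-5p. With the total count miR-322-5p kept its call (−0.78, 0.00503) and miR-503-5p did not (−0.75, 0.0736).

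Summing counts by seed put this fall in the context of its family. Over 128 seeds tested, 16 were called (12.5%), 13 lower (10.2%) and 3 higher (2.34%), on a scale computed from miRNAs with a known sequence. The seed AGCAGCA, shared by miR-322-5p, miR-497a-5p, miR-15b-5p, miR-15a-5p and miR-195a-5p, stood at 121848 and 110509.9 CPM in control and 52664 and 65783 CPM in paused TSC (−0.97, edgeR adjusted p = 0.0145). miR-322-5p carried most of these counts. miR-497a-5p, a close relative on chromosome 11, had 29 and 4 counts in control and 1 and 3 in paused TSC (−2.23) and was called under 1 of the 5 scalings, TMM; without control 1 it stood at 0.446, without paused 1 at 0.211 and without paused 2 at 0.105. miR-15b-5p, in an intron of the condensin gene Smc4, had 6 and 3 counts in control and 2 and 7 in paused TSC and was not called (0.66). miR-16-5p, the best known bearer of this seed, is a multicopy miRNA and cannot be read here. The seed's change in TSC minus that in ESC was −1.41 on the log2 scale (edgeR adjusted p = 0.0178). For miR-322-5p alone the difference was not called. Its cluster held at most 0.160% of counts in any ESC library, so in ESC the sum may rest on other members.

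Among epithelial miRNAs miR-203-3p fell clearly. It promotes the exit of epithelial progenitors from the cell cycle in skin and lies on chromosome 12, 112130880 to 112130955, outside the Dlk1-Dio3 cluster. It stood at 3070.0 and 2408 CPM in control and 537 and 514 CPM in paused TSC, so that each control library was more than 4 times each paused library. The fall was 5.28-fold (log2 −2.40 ± 0.42 SE, edgeR adjusted p = 5.23e-07), and the adjusted p stayed at or below 0.00107 with any 1 library left out. miR-205-5p, another epithelial miRNA, had 11 and 4 counts in control and 5 and 3 in paused TSC and was not called (−0.20).

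The miR-200 family, which holds cells epithelial by repressing Zeb1 and Zeb2, split. miR-141-3p rose: 268 and 241 CPM in control and 620.0 and 726 CPM in paused TSC, without overlap (log2 1.37 ± 0.48 SE, edgeR adjusted p = 0.0303). Its neighbour on chromosome 6, miR-200c-3p, stood at 115 and 60.2 CPM in control and 289 and 333 CPM in paused TSC and was not called on TMM scaling (1.57, 0.131), though it was with the total count (2.13, 0.0304). At the other locus, on chromosome 4, miR-429-3p fell (955 and 602 CPM in control and 496 and 181 CPM in paused TSC; −1.38, 0.0258). Its neighbours miR-200a-3p (0.05) and miR-200b-3p (−0.78) were not called. Without control 1, paused 1 or paused 2 the adjusted p of miR-141-3p was 0.253, 0.0966 and 0.236 (DESeq2 did not call it either, 0.211), and that of miR-429-3p was 0.524 without control 1 and 0.478 without paused 2. With the total count miR-429-3p lost its call (0.225). In the miR-183 cluster, a set of sensory and epithelial miRNAs, miR-96-3p was lower (47 and 7 counts in control and 5 and 6 in paused TSC), 1 of 4 tested, and its call was lost with the total count (0.272), without control 1 (0.555), without paused 1 (0.179) and without paused 2 (0.287). The most abundant member, miR-183-5p, was not called (−0.31).

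The imprinted Dlk1-Dio3 cluster, a run of hairpins on chromosome 12 expressed from the maternal allele, had few counts in TSC and fewer in paused TSC. It held 0.442% and 0.459% of counts in control and 0.233% and 0.200% in paused TSC, with no overlap, and 5.22% ± 0.406 (SD, n = 2) in control ESC. Of 110 listed members 60 had a TSC count, 33 passed a filter read over all 4 groups, and 26 of those 33 had 3 or fewer counts in a TSC group. The filter asked for about 369 CPM in 2 libraries of any group, so members low in TSC could pass on their ESC counts. The calls and the median below rest in part on such members. By edgeR 8 of 33 were lower (17.0% over all tested miRNAs) and 0 higher; at an unadjusted p under 0.05 the whole comparison held 57 miRNAs. The median log2 fold change was −1.49 against −0.39 for all tested (−0.95 against 0.08 with the total count, with 3 called). It was −1.36 over 28 members when 4 that had 0 counts in a TSC group were set to their bound and 5 with 3 or fewer counts in both groups were left out. That median also rests in part on members with 3 or fewer counts in a TSC group, so it is no separate check.

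The best counted member was miR-376b-3p (chromosome 12, 109723458 to 109723539), at 1452 and 482 CPM in control and 124 and 121 CPM in paused TSC (114 and 8 counts and 3 and 4). Control 1 was well above control 2, and both were above the paused libraries (log2 −3.13 ± 0.56 SE, edgeR adjusted p = 9.31e-07, 0.141 without control 1). miR-300-3p had 40 and 5 counts in control and 3 and 2 in paused TSC (−2.30), and its call was lost without control 1 (0.397), without paused 2 (0.196) and with the total count (0.0688). For the others only counts and ratios per total count can be given. miR-154-3p, in an intron of the noncoding RNA Mirg, had 18 and 1 counts in control and 0 and 0 in paused TSC. Against a floor of 3 counts over the paused group, control stood 2.55-fold higher, with the control counts taken as exact. The call of miR-154-3p was lost without control 1 and without paused 2. miR-380-3p had 29 and 0 counts in control and 0 and 1 in paused TSC, a ratio of control to paused of 11.7 (95% counting interval 1.94 to 478). Its direction rests on control 1, without which its log2 fold change was 2.61, and its adjusted p without paused 1 was 0.0649.

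The other 4 called Dlk1-Dio3 miRNAs had few reads. miR-495-3p had 24 and 3 counts in control and 1 and 2 in paused TSC, a ratio of 3.63 (95% counting interval 1.12 to 18.7). miR-337-3p had 14 and 3 counts in control and 0 and 1 in paused TSC, a ratio of 6.86 (95% counting interval 1.07 to 287). Control 1 held most of the counts of both. miR-379-3p and miR-411-3p, which share the seed AUGUAAC, had 13 and 3 counts in control and 0 and 1 in paused TSC, a ratio of 6.45 (95% counting interval 1.00 to 271), and 18 and 2 counts in control and 0 and 2 in paused TSC, a ratio of 4.03 (95% counting interval 0.980 to 35.6). Summed, that seed was called (−2.48, edgeR adjusted p = 0.0161), also with the total count (0.0293). The cluster's count of calls was 0 without control 1, 3 without paused 1, 9 without control 2 and 2 without paused 2, and 2 by DESeq2.

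The let-7 family, which promotes differentiation and is held low in stem cells by Lin28, was counted through a few single-copy members. Of 23 listed arms 16 had a TSC count and 4 were tested, with 3 called lower by edgeR (17.0% lower over all tested miRNAs). let-7g-5p, in an intron of Wdr82, stood at 2306 and 1986 CPM in control and 1157 and 937 CPM in paused TSC (−1.06, adjusted p = 0.0410). let-7d-5p stood at 981 and 903 CPM in control and 372 and 333 CPM in paused TSC (−1.44, 0.0233). let-7i-5p had 46 and 7 counts in control and 3 and 3 in paused TSC (−2.32, 0.0172). In these 3 members the control libraries were above the paused ones. let-7e-5p went the other way without being called (0.32), and the summed seed GAGGUAG of 8 let-7 and miR-98 arms was not called (−0.62, 0.374). Under each of the other 4 scalings, by DESeq2, and without control 1, paused 1 or paused 2, 0 members were called; at an unadjusted p under 0.05 DESeq2 held 30 miRNAs over the whole comparison.

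The Sfmbt2 cluster, whose hairpins fill an intron of an imprinted gene needed for the placenta, kept its share of all counts. It held 4.05% and 3.95% in control and 3.77% and 4.11% in paused TSC. The change in mean share was −0.0562 percentage points, and −0.505 points with the doubtful entries left out of the total. Of 80 listed members 41 had a TSC count and 20 were tested. edgeR called 3 of 20 lower, a share below the 17.0% over all tested miRNAs: miR-669l-3p (−2.30), miR-669e-5p (−1.26) and miR-467d-5p (−1.10). It called 8 of 20 without control 2, and 0 of 20 were called under each of the other 4 scalings, by DESeq2, or without control 1, paused 1 or paused 2. The median of the 20 was −0.71 against −0.39 over all tested miRNAs (−0.21 against 0.08 with the total count). The most abundant member, miR-669f-3p, stood at 13707 and 8728 CPM in control and 5415 and 7711 CPM in paused TSC and was not called (−0.78, 0.0877). miR-669c-5p stood at 5631 and 5538 CPM in control and 5745 and 4959 CPM in paused TSC, with the groups overlapping (−0.06, 0.933). Reads of these near-identical hairpins may be split between members by the counting, so single members are uncertain.

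The remaining miRNAs called lower came from other loci. miR-672-5p, in an intron of the X-linked gene Nexmif, had 43 and 15 counts in control and 5 and 4 in paused TSC (−2.03, edgeR adjusted p = 0.00360; 0.0550 with the total count and 0.145 without paused 2). miR-210-3p, the classic miRNA of hypoxia, stood at 2242 and 3792 CPM in control and 1653 and 1239.9 CPM in paused TSC (−1.02, 0.0494). Its call was lost with the total count (0.337), without paused 1 (0.0997), without control 2 (0.156) and without paused 2 (0.328). miR-24-2-5p (−1.14; 0.414 without control 1 and 0.478 without paused 2) and miR-714 (−1.71; 0.397 without control 1, 0.316 without paused 1 and 0.0918 without paused 2) were called on TMM scaling and not with the total count. miR-1949 had 55 and 8 counts in control and 0 and 3 in paused TSC, a ratio of 8.47 (95% counting interval 2.77 to 42.2) per total count, and was called in each run that left out 1 library. From the X-linked miR-106a-363 cluster, a paralog of miR-17-92, miR-106a-5p had 7 and 1 counts in control and 0 and 0 in paused TSC and miR-20b-5p had 10 and 0 counts in control and 0 and 0 in paused TSC. Against a floor of 3 counts over the paused group, control stood 1.08-fold and 1.34-fold higher. These ratios take the control counts as exact, so at such low counts a fall is not shown. Without control 1, control TSC had 0 counts of miR-20b-5p as well, and the adjusted p of miR-106a-5p was 0.397. Without paused 1 or paused 2 these were 0.216 and 0.302 for miR-106a-5p and 0.179 and 0.261 for miR-20b-5p.

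One rise was at the imprinted gene Mest. miR-335-5p, from an intron of this growth-linked gene (chromosome 6, 30741299 to 30741396), stood at 2803 and 2408 CPM in control and 5828 and 6199 CPM in paused TSC. Each paused library was above each control library by more than 2-fold, a rise of 2.28-fold (log2 1.19 ± 0.35 SE, edgeR adjusted p = 0.0100). With the total count the log2 value was 1.67, and without paused 2 the adjusted p was 0.0918. With a fold minimum of 1.5, with libraries blocked by replicate number and with a filter at 10 CPM, 0 miRNAs were called higher. In the main fit, miR-335-5p was the one called of the 5 tested miRNAs of imprinted genes outside the large clusters. miR-296-3p (0.39), miR-296-5p (0.42) and miR-298-5p (0.28) of the Gnas locus and miR-483-3p (0.39) of Igf2 were not. The 10 listed miRNAs of these genes together held 0.669% and 0.929% of counts in control and 1.71% and 1.56% in paused TSC.

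miR-21a-5p, a miRNA induced by growth factors and stress, stood at 6229 and 3371 CPM in control and 7439.9 and 11763 CPM in paused TSC. Its hairpin lies in an exon of Vmp1 (chromosome 11, 86584067 to 86584158). The groups did not overlap but lay close, with control 1 near paused 1, and the rise was 1.95-fold (log2 0.97 ± 0.34 SE, edgeR adjusted p = 0.0294). Without control 2 the adjusted p was 0.112 and without paused 2 it was 0.434, while DESeq2 called it (0.00933).

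miR-99b-5p belongs to the miR-99 family, for which Mtor is a described target. It stood at 382 and 241 CPM in control and 992 and 877 CPM in paused TSC (log2 1.42 ± 0.45 SE, edgeR adjusted p = 0.0172). Both paused libraries were more than 2-fold above both control libraries. The mature miRNA lies on chromosome 17, 17830194 to 17830215, in 1 cluster with let-7e and miR-125a at Spaca6. miR-125a-5p of that cluster stood at 2497 and 1806 CPM in control and 3720.0 and 4717 CPM in paused TSC, also without overlap, and just missed the call (0.94, 0.0519), which it passed with the total count (1.43, 0.00202). let-7e-5p stood at 994 and 542 CPM in control and 744 and 1331 CPM in paused TSC and overlapped (0.32, 0.633). The seed ACCCGUA, which adds the reads of miR-100-5p, was called at 1.68 (0.00639). Without control 1, paused 1 or paused 2 the adjusted p of miR-99b-5p was 0.0668, 0.139 and 0.100, and DESeq2 did not call it (0.211).

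The most abundant cluster of TSC, miR-290-295, did not pass the test in any of its members. It promotes the embryonic cell cycle and held 55.2% and 48.6% of counts in control and 59.1% and 58.1% in paused TSC. Of 14 tested members edgeR called 0, where the comparison held 57 miRNAs at an unadjusted p under 0.05, DESeq2 called 0, and the median was −0.40 on TMM scaling but 0.08 with the total count, under which 1 member was called higher. miR-290a-5p, the most abundant miRNA in each TSC library, stood at 171146 and 127725 CPM in control and 131397 and 124378 CPM in paused TSC (−0.23, 0.661). The seed AAGUGCU, mainly of miR-291a-3p, miR-294-3p and miR-295-3p, was at 340112 and 213343 CPM in control and 238814 and 238706 CPM in paused TSC (−0.21, 0.737). Of the share gained by the cluster, 6.72 percentage points, 1.24 points remained when the doubtful entries were left out of the total. With those entries kept, the gain was 10.0 points without control 1 and 3.42 points without control 2. Without control 2, 5 members were called lower.

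The miR-130 family, abundant in trophoblast, varied between libraries. miR-130a-3p stood at 14420.3 and 30998 CPM in control and 48566 and 19535 CPM in paused TSC, with the groups overlapping and paused 1 the highest (0.59, edgeR adjusted p = 0.198; 0.95, 0.0154 with the total count). miR-301a-3p stood at 35911 and 24016 CPM in control and 27404 and 27065 CPM in paused TSC (−0.14). The shared seed AGUGCAA was not called (0.49, 0.374). The miR-17-92 cluster, a driver of proliferation under Myc, held 2.25% and 1.58% of counts in control and 2.94% and 3.22% in paused TSC, without overlap, yet 0 of 8 tested members were called by edgeR or DESeq2 and 2 with the total count. miR-17-5p stood at 16344 and 10172 CPM in control and 13557 and 15483 CPM in paused TSC (0.12). Its seed AAAGUGC, summed over 6 miRNAs, was at 0.37 (0.473). miR-34a-5p, a target of p53 that restrains the cell cycle, stood at 19452 and 17395 CPM in control and 10457 and 10977 CPM in paused TSC, without overlap, and was not called (−0.78, 0.0778). miR-29a-3p (−0.32), miR-30b-5p (0.51) and miR-26b-5p (−0.45), of families often studied in differentiated cells, were not called either.

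The use of the 2 arms of a hairpin is a within-hairpin ratio and does not depend on the scaling. Over 47 hairpins with at least 20 counts in every TSC library, the share of the 5p arm moved by a median of 0.658 percentage points between groups, in either direction. In 10 hairpins the libraries did not overlap, 4 with a higher and 6 with a lower 5p share in paused TSC. With 2 libraries a group such orders often arise by chance, so 10 of 47 hairpins do not show a change in arm use. The hairpins below are described and not tested. miR-322 had a 5p share of 95.0% and 94.4% in control and 93.1% and 92.5% in paused TSC, so its paused libraries held a little more of the 3p arm. The exact binomial 95% intervals were 94.5% to 95.4% in control 1 and 91.1% to 93.6% in paused 2. miR-293 of the miR-290-295 cluster differed by more between these libraries, with 35.9% and 31.9% in control and 26.1% and 28.5% in paused TSC. miR-292a had 82.1% and 81.2% in control and 77.9% and 77.0% in paused TSC. miR-291a of the same cluster overlapped between groups, with 34.0% and 41.4% in control and 44.8% and 41.0% in paused TSC. At a minimum of 50 counts, 6 of 32 hairpins did not overlap, and the same limit holds.

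Whether a change belonged to TSC was tested against the change in ESC. The 2 comparisons share no library. The pause effect in TSC differed from that in ESC for 54 of 206 miRNAs (26.2%), 30 lower in TSC (14.6%) and 24 higher (11.7%). In ESC 57 miRNAs were called (27.7%), 17 higher (8.25%) and 40 lower (19.4%). Of the 39 called in TSC, 23 had a called difference. Lower in both cell types were 6, which is 17.1% of the 35 lower in TSC and 15.0% of the 40 lower in ESC. By origin, 3 were of the Sfmbt2 cluster (miR-669l-3p, miR-669e-5p, miR-467d-5p), 2 were doubtful entries (miR-5099, miR-1983) and 1 was miR-154-3p of Dlk1-Dio3. Of these, edgeR called the difference for miR-154-3p and miR-669e-5p.

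Changes that were lower in TSC than in ESC by the test included miR-5126 (−2.50 in TSC and −0.08 in ESC; difference −2.41 ± 0.44 SE, edgeR adjusted p = 1.91e-06) and miR-376b-3p (difference −2.79, 0.000526). miR-203-3p was also called (0.00289), on 1 and 2 counts in control and 12 and 10 in paused ESC. Total counts were 19266 and 13607 in control and 73574 and 61749 in paused ESC, so raw ESC counts here compare unlike depths. Called lower in TSC and higher in ESC were miR-690 (−1.47 and 2.00), miR-429-3p (−1.38 and 1.28) and miR-1949, which had 14 and 8 counts in control and 314 and 265 in paused ESC. The 10 called differences among 33 Dlk1-Dio3 members had TSC below ESC (14.6% in that direction over all tested miRNAs), and 3 of them had more than 3 counts in each of the 4 groups (miR-376b-3p, miR-300-3p and miR-379-5p, −2.79 to −2.29). miR-335-5p (−0.51 in ESC; difference 1.70 ± 0.54 SE, adjusted p = 0.0113) and miR-21a-5p (−0.41 in ESC; difference 1.37, 0.0283) had a higher change in TSC. For miR-99b-5p (difference 1.30, 0.256), miR-141-3p (0.70, 0.481) and miR-322-5p (−1.16, 0.0822) the difference was not called.

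The Sfmbt2 cluster gave the other side of the contrast. 15 of its 20 tested members had a called difference, each with TSC above ESC (11.7% in that direction over all tested miRNAs), and 10 of these had more than 3 counts in each of the 4 groups, with differences of 1.76 to 4.38 on the log2 scale. miR-669f-3p, for instance, was at −0.78 in TSC and −4.22 in ESC (difference 3.43 ± 0.53 SE, edgeR adjusted p = 8.83e-09). In the miR-130 family miR-130a-3p (1.90, 0.000676) and miR-301a-3p (1.75, 0.00172) also had differences above 0. Over the 33 Dlk1-Dio3 members the median was −1.49 in TSC and 0.30 in ESC, and over the 20 Sfmbt2 members it was −0.71 in TSC and −3.99 in ESC. With members at 0 counts set to their bound the ESC median was −3.83 over 17 Sfmbt2 members.

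**Figure D5:**
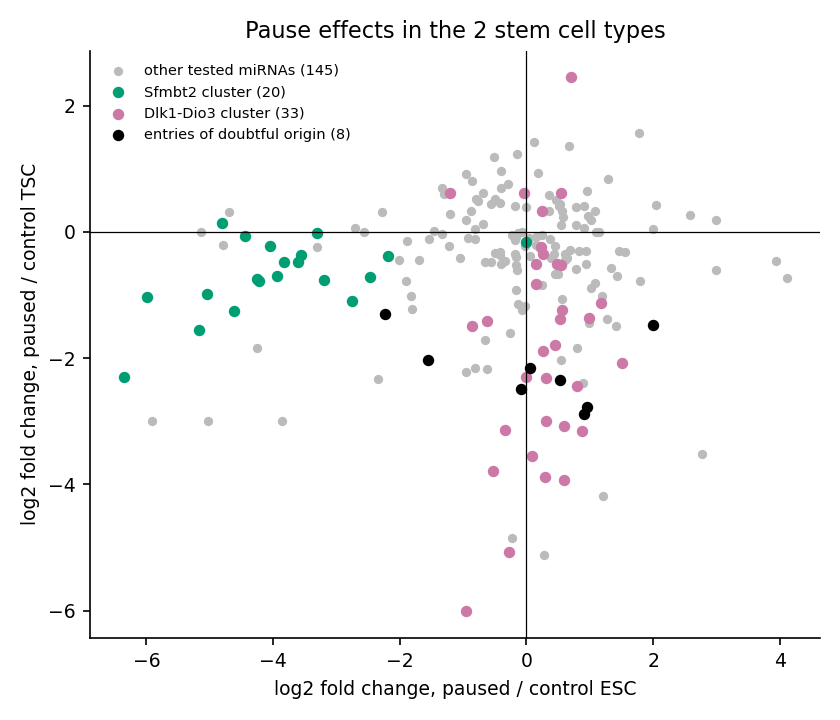
Fitted log2 fold change of paused against control cells in ESC (x axis) and in TSC (y axis) for the 206 tested miRNAs. Sfmbt2 members (green, 20) lie mostly to the left of 0, at a median of −3.99 in ESC, and Dlk1-Dio3 members (pink, 33) lie below 0 in TSC with few exceptions (5 of 33 above 0), as do the 8 doubtful entries (black).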

How the data were processed

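Small RNA libraries of control and paused TSC and ESC were counted per mature miRNA by the authors, who deposited raw counts for 1978 miRNAs in each of 12 files. The build was GRCm38, per the submitters' processing notes. The sources used here do not give the aligner, the counter, the annotation or how reads with several matches were treated. Samples were grouped by their labels. Files with identical counts were used once, leaving 8 libraries, 4 of them TSC with 18725 to 115492 counts.

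The 4 groups were fitted together with edgeR 4.0.16 (R 4.3.3), as a quasi-likelihood model with TMM scaling and the default filterByExpr filter (minimum count 10, about 369 CPM in 2 libraries), which left 206 miRNAs and 4 residual degrees of freedom. Paused was tested against control TSC, and the TSC change against the ESC change, with Benjamini-Hochberg adjustment over the miRNAs tested and a threshold of 0.05. The biological coefficient of variation was 21.3%. The prior degrees of freedom were infinite, so each miRNA was tested with a spread fitted across miRNAs and not with its own. Each SE was derived from that test, as the absolute log2 fold change over the square root of its F statistic. Counts were also summed by seed over 1679 miRNAs matched to RefSeq sequences (GRCm38.p6); 299 were not matched. A floor of 3 counts served as the limit for a count of 0, and 95% intervals are exact. Alternatives used DESeq2 1.42.0, other scalings, filters, a fold minimum of 1.5, thinning, blocks and runs without 1 library. The fit was tested on simulated data.

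Named miRNAs are those called in TSC with their other arms, the 10 most abundant of each TSC group, the 6 most abundant tested members of each list, the 5 highest and 5 lowest differences from ESC above 100 CPM, and members of called seeds. Other named miRNAs, such as members of clusters around these, were chosen after their values were seen. Members and lists were chosen with earlier results of these data known.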

Additional observations from a re-analysis of the deposited data

Results flagged for a closer look

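Among miRNAs called in TSC and the 5 highest and 5 lowest differences above 100 CPM, the pause effect differed between TSC and ESC by edgeR's test of the difference itself for 29. The 15 of these with more than 3 counts in each of the 4 groups are given here, and they are not all the called differences. The values are the TSC log2 fold change minus that in ESC. The change was lower in TSC for miR-712-5p (−3.80), miR-712-3p (−3.74), miR-690 (−3.47), miR-96-3p (−2.92), miR-6240 (−2.88), miR-376b-3p (−2.79), miR-429-3p (−2.66), miR-672-5p (−2.58), miR-5126 (−2.41), miR-300-3p (−2.29) and miR-2137 (−2.21). Of these 11, 6 are entries of doubtful origin.

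The change was higher in TSC for miR-21a-5p (1.37), miR-335-5p (1.70), miR-669c-5p (4.38) and miR-3473b (5.01). miR-3473b was not called in TSC, where it stood at 446 and 2949 CPM in control and 1695 and 1875 CPM in paused TSC (0.32, edgeR adjusted p = 0.658), and it fell in ESC (−4.69). miR-669c-5p, of the Sfmbt2 cluster, likewise was near its control level in TSC (−0.06) and fell in ESC (−4.45). The other 14 of the 29 had 3 or fewer counts in a group and are not given as values.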

How the results depend on the processing

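The calls depend on the scaling and on single libraries. Against 39 calls in TSC (4 higher, 35 lower), DESeq2 gave 16 (13 lower), median of ratios 24 (18 lower), the total count 14 higher and 12 lower, TMM without the miR-290-295 cluster 19 (13 lower), and totals without the doubtful entries 25 (9 higher, 16 lower). No filter gave 16 (12 lower), a filter at 10 CPM 43 (0 higher, 43 lower; 97 miRNAs at an unadjusted p under 0.05), TSC groups alone 22 (16 lower), every deposited file as a library 56 (11 higher, 45 lower), a fold minimum of 1.5 gave 13 (0 higher, 13 lower; 45 at an unadjusted p under 0.05) and thinning 13 (2 higher, 11 lower). Leaving out 1 library gave 12 to 57 calls, 0 to 6 higher and 12 to 51 lower; where an arm kept 1 library, it was assumed to vary like the other groups. The causes were not tested.

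For the difference from ESC (54; 24 higher, 30 lower), DESeq2 gave 30 (13 lower), no filter 30 (15 higher, 15 lower), every file 89 (37 higher, 52 lower), thinning 33 (11 lower), the total count 40 higher and 17 lower, totals without the doubtful entries 39 higher, and 10 CPM 51 (9 higher, 42 lower). Runs without 1 library gave 34 to 69, 18 to 32 higher and 16 to 44 lower. For seeds (16; 3 higher, 13 lower), no filter gave 9 (0 higher), every file 32 (9 higher, 23 lower), thinning 10 (8 lower), the total count 20 (10 higher, 10 lower), TMM without miR-290-295 5 higher and 10 CPM 12 (0 higher, 12 lower). Runs without 1 library gave 8 to 20, 2 to 7 higher and 6 to 13 lower.

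The labels do not say whether same-numbered control and paused libraries were prepared together. Deviations of same-numbered libraries correlated at −0.183 in TSC and −0.0715 in ESC. With 2 libraries a group this does not settle whether they shared a batch. With the replicate block TSC calls were 12 (0 higher, 12 lower; 44 at an unadjusted p under 0.05), differences 31 (15 lower) and seeds 6 (0 higher, 6 lower). A crossed pairing, chosen after seeing the data, gave 25 (21 lower).

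Without control 1, miR-380-3p turned: over the runs without 1 library it ranged from −6.59 to 2.61 and its difference from ESC from −6.06 to 3.14. miR-20b-5p ranged from −5.56 to 0.00, the last without control 1, when both TSC groups held 0 counts and no direction was left. Of 653 values of the 39 called miRNAs under alternatives 340 kept their call, 311 lost it and 2 changed sign or fell to 0 (miR-380-3p and miR-20b-5p). Of the 340, 39 came from the run with every deposited file as a library, which counts identical files as separate libraries. With the doubtful entries left out of the total, the change in share was 1.24 points for the miR-290-295 cluster, −0.294 for Dlk1-Dio3 and −0.505 for Sfmbt2. Hairpins without overlap were 6 at 50 counts and 24 to 27 without 1 library. Control 2, with 18725 counts, and its floor of 160.2 CPM limit what low miRNAs can show.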
